A study of Mus musculus with 4 samples.

Results

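The genes described here are 10 genes of glycolysis and of the response to low oxygen: Slc2a1, Hk2, Pfkfb3, Pgk1, Eno1, Ldha, Hif1a, Egln3, Car9 and Vegfa. They were chosen by name, and every probe that the array design assigns to one of these names was taken, which gave 21 probes. All 10 had a probe that passed the filter on dim probes, out of 19326 genes tested in all. The mutant mice were of genotype Junb fl/fl Cd4-Cre and the control mice Junb fl/fl, so both carried floxed alleles of Junb, a transcription factor gene of the AP-1 family. All were C57BL/6 mice that had drunk dextran sulphate sodium (DSS), an agent that injures the colon lining, and their whole colon was taken on day 5. Cre driven by Cd4 acts chiefly in the T cell lineage, so most cells of the tissue keep Junb in both genotypes. Each genotype had 2 one-colour arrays, and the labels state neither age nor sex.

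Glycolysis turns glucose into pyruvate and, when pyruvate is reduced, into lactate. When oxygen is scarce, the transcription factor HIF-1 raises the genes of this pathway together with genes of acid handling and blood vessel growth. Its alpha subunit is hydroxylated and degraded while oxygen is plentiful, by enzymes of which Egln3 encodes one, so HIF-1 is controlled largely at the protein level. The colon epithelium normally lies at low oxygen beside an anaerobic lumen, and activated immune cells also draw on glycolysis.

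HIF-1 binds DNA at the core letters ACGTG or GCGTG. RefSeq promoter windows (GRCm38.p6), which run from 250 bases before to 50 after each transcript start, were found for all 10 genes, 15 windows in all. ACGTG was present on either strand in 10 of the 15 windows (66.7%), against 19.6% of the 32851 windows of all genes. ACGTG or GCGTG was present in 14 of the 15 (93.3%), against 43.8% of all windows. A match is a description of the letters and not a measured binding site. ACGTG also lies within the E-box CACGTG, which other factors bind and which was present in 3 of the 15 windows (20%), against 7.15% of all windows. By gene, ACGTG lay in a window of 9 of the 10, against 21.8% of all genes. Among them are Slc2a1, Hk2, Hif1a and Egln3, which are not shown and whose arrays overlapped. The stretches below are shown for Pfkfb3, Pgk1, Car9 and Vegfa, the genes whose arrays did not overlap between genotypes, and for Ldha, which has the window with the most matches. They run 5′ to 3′ on the strand of the gene and end before its start, with ACGTG, on either strand, in capitals.
Pfkfb3, chr2:11502120-11502161, minus strand: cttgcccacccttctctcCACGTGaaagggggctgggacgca
Pfkfb3, chr2:11553967-11554007, minus strand: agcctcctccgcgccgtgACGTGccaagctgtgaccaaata
Pgk1, chrX:106186932-106186991, plus strand: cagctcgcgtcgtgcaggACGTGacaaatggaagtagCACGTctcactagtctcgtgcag
Ldha, chr7:46845641-46845792, plus strand: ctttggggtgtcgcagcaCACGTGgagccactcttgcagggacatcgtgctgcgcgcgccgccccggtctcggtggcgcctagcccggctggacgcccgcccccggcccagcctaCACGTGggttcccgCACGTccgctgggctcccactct
Car9, chr4:43506990-43507025, plus strand: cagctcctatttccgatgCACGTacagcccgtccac
Vegfa, chr17:46025352-46025392, minus strand: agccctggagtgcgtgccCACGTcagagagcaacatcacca
The Ldha sequence held 3 separate runs of capitals, 2 of them E-boxes, that of Pgk1 held 2, and each of the others held 1. The run in the first Pfkfb3 sequence is an E-box as well. The other Ldha window and every Eno1 window held GCGTG only, so Eno1 is the gene of the 10 without ACGTG. A second start of Vegfa had neither ACGTG nor GCGTG.

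All 4 arrays lay on 1 slide and were scanned together, no spot was saturated, and the arrays correlated at Pearson's r between 0.976 and 0.984 across genes. Levels are given as the log2 of the processed signal relative to the 75th percentile of the same array, so that 0 is the level of a fairly bright spot. They are not comparable between probes. Junb itself was at 4.44 and 4.47 in the mutants and 4.23 and 4.39 in the controls, and as most of the tissue keeps the gene this does not check the deletion. Xist was at -0.77 and -6.43 in mutant replicates 1 and 2 and at -0.55 and -6.13 in control replicates 1 and 2, and Eif2s3y, on the Y chromosome, was at -6.20 and -0.11 in the mutants and -6.08 and 0.19 in the controls. The replicate number thus separated a female from a male colon in both genotypes, and differences within the replicate 1 (female) pair and the replicate 2 (male) pair are given beside the pooled ones. With 2 arrays a genotype, each p-value rests on the gap between a female and a male colon, moderated by that of other genes. In RNA of a whole tissue, fewer cells of a type and less RNA per cell cannot be told apart.

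Glycolysis and hypoxia genes differed little between the mutant and the control colon. Slc2a1, Hk2, Pfkfb3, Pgk1, Eno1, Ldha, Hif1a and Egln3 were higher in the mutants and Car9 and Vegfa lower, by log2 differences between -0.27 and 0.45. Of all genes tested, 53.3% were higher, or 50.3% with quantile normalization. With quantile normalization the split of the 10 genes was 5 higher and 5 lower (median 0.00029, against 0.0017 over all genes), as Slc2a1, Eno1 and Ldha turned to -0.06, -0.05 and -0.01. None of the 10 passed an adjusted p of 0.05 in limma (adjusted p = 0.42 to 0.961), and neither did any other gene (0%, smallest adjusted p = 0.373). With the replicate number, and so the sex, as a block, 46 genes passed but none of the 10, of which 3 (Pfkfb3, Hk2 and Vegfa) then had an unadjusted p under 0.05. So did 3383 of all 19326 genes, against 1796 without the block. Without the block, 1 member, Pfkfb3, was higher at an unadjusted p under 0.05 and none lower, against 5.31% of all genes higher and 3.98% lower. The median difference was 0.12 over the 10 genes and 0.02 over all genes tested, and the median absolute difference was 0.17 in both. The first of these was 0.04 without mutant replicate 1 and 0.06 without control replicate 1. By the brightest probe of each of the 10, the 95% interval of the difference lay within a 2-fold change in either direction. These intervals reached at most 1.89-fold higher, for Hif1a, and 1.49-fold lower, for Vegfa. The dimmest probes of Vegfa and Hif1a had log2 intervals beyond 2-fold, -1.43 to 0.62 and -1.44 to 1.75. None of the intervals was widened for the number of genes.

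**Figure D1:**
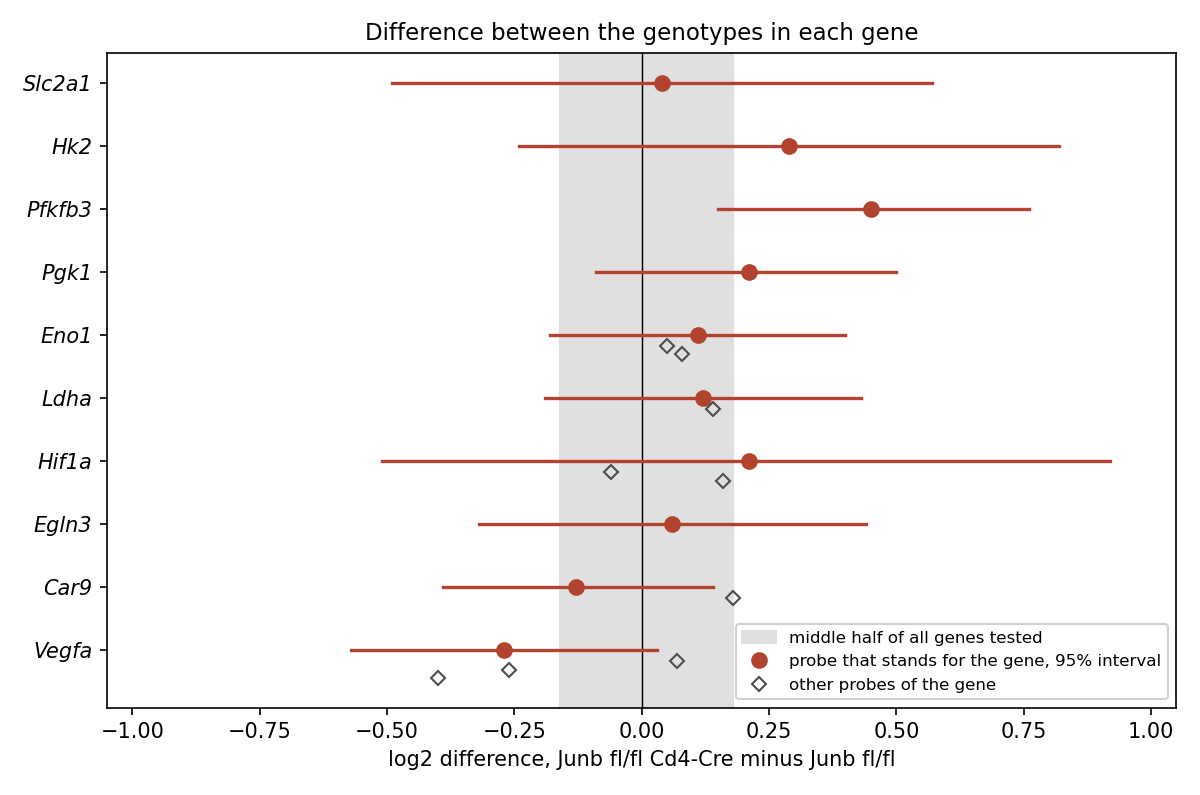
Log2 difference between Junb fl/fl Cd4-Cre and Junb fl/fl colon (x axis) for each of the 10 genes (y axis), n = 2 arrays each. Filled points with bars are the probe that stands for the gene and its 95% interval from limma, diamonds are its other probes, and the grey band holds the middle 50% of all genes tested, from -0.16 to 0.18. Only the interval of Pfkfb3 leaves out 0.

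Both mutants lay above both controls for 2 of the 10 genes, Pfkfb3 and Pgk1, where 25.7% of all genes did so. Both mutants lay below both controls for 2 others, Car9 and Vegfa, against 17.6% of all genes. In the remaining 6 genes the genotypes overlapped. These shares are close to those of all genes.

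Glucose entry came first in the order of the pathway. Slc2a1 encodes GLUT1, a glucose carrier of the plasma membrane. Its only probe (chromosome 4, 118809864 to 118809923, mm9) was at 4.41 and 4.89 in the mutants, against 4.44 and 4.78 in the controls. The replicate 2 colon was the higher of the pair in both genotypes, by 0.48 in the mutants and 0.34 in the controls. The genotypes differed by 0.04 ± 0.21 (SE, 95% interval -0.49 to 0.57, limma adjusted p = 0.961), less than the gap within either genotype.

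Hk2 encodes hexokinase 2, which phosphorylates glucose and so holds it in the cell. Its only probe (chromosome 6, 82675056 to 82675115, mm9) was at 4.08 and 3.58 in the mutants, against 3.69 and 3.38 in the controls. Here replicate 1 was the higher in both genotypes, by 0.50 in the mutants and 0.32 in the controls, and the genotypes overlapped. The difference was 0.29 ± 0.21, or 1.23-fold (interval -0.24 to 0.82, adjusted p = 0.676), with 0.38 between the female colons and 0.20 between the male ones. Without 1 array it ranged from 0.05, without mutant replicate 1, to 0.54, without mutant replicate 2.

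Pfkfb3 makes fructose 2,6-bisphosphate, the strongest activator of phosphofructokinase and so of the committed step of glycolysis. The brighter of its probes (chromosome 2, 11393579 to 11393638, mm9) was at 1.87 and 1.71 in the mutants, against 1.33 and 1.34 in the controls. The controls were almost level, and both mutants lay above them. Pfkfb3 was 1.37-fold higher (log2 difference 0.45 ± 0.12, interval 0.15 to 0.76), with an unadjusted p of 0.0114 and an adjusted p of 0.42, so it did not pass. The difference was 0.54 in the female and 0.37 in the male pair. It stayed between 0.37 and 0.54 when 1 array was left out, and without mutant replicate 1 its unadjusted p was 0.0882. The other Pfkfb3 probe failed the background filter on all 4 arrays, so the difference rests on 1 probe.

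Pgk1 encodes phosphoglycerate kinase 1, which makes ATP in the later steps of glycolysis. Its bright probe (chromosome X, 103398915 to 103398974, mm9) was at 7.10 and 6.90 in the mutants, against 6.80 and 6.79 in the controls. Both mutants were higher, but the gap between them, 0.20, was about as wide as the difference between genotypes. That difference was 0.21 ± 0.12 (1.15-fold, interval -0.09 to 0.50, adjusted p = 0.624), and it was 0.11 without mutant replicate 1 and 0.05 with quantile normalization. Another probe that carries the name Pgk1, placed on the opposite strand, stayed near background throughout.

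Eno1 encodes enolase 1, the next enzyme but one. Its brightest probe (chromosome 4, 149622928 to 149622987, mm9) was at 5.94 and 5.78 in the mutants, against 5.69 and 5.81 in the controls, and the arrays overlapped. The difference was 0.11 ± 0.11 (interval -0.18 to 0.40, adjusted p = 0.784), with 0.25 between the female colons and -0.03 between the male ones. Leaving out any 1 of the 4 arrays moved it by over 1.5 times, within 0.03 to 0.19. Its other probes gave 0.05 ± 0.14 and 0.08 ± 0.15. The first of these is also assigned to transcripts of Eno1b, a near copy, so its signal cannot be given to Eno1 alone.

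Ldha encodes the lactate dehydrogenase subunit that turns pyruvate into lactate, the end of glycolysis where pyruvate does not enter mitochondria. The brighter probe (chromosome 7, 54110937 to 54110996, mm9) was at 7.33 and 7.54 in the mutants, against 7.26 and 7.36 in the controls. Mutant replicate 1 lay just below control replicate 2, so the genotypes overlapped. The difference was 0.12 ± 0.12 (1.09-fold, interval -0.19 to 0.43, adjusted p = 0.775), with 0.02 without mutant replicate 2, 0.22 without mutant replicate 1 and 0.07 without control replicate 1. The dimmer Ldha probe gave 0.14 ± 0.16. Like that of Slc2a1 and Eno1, the sign of the Ldha difference depended on the scaling.

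**Figure D2:**
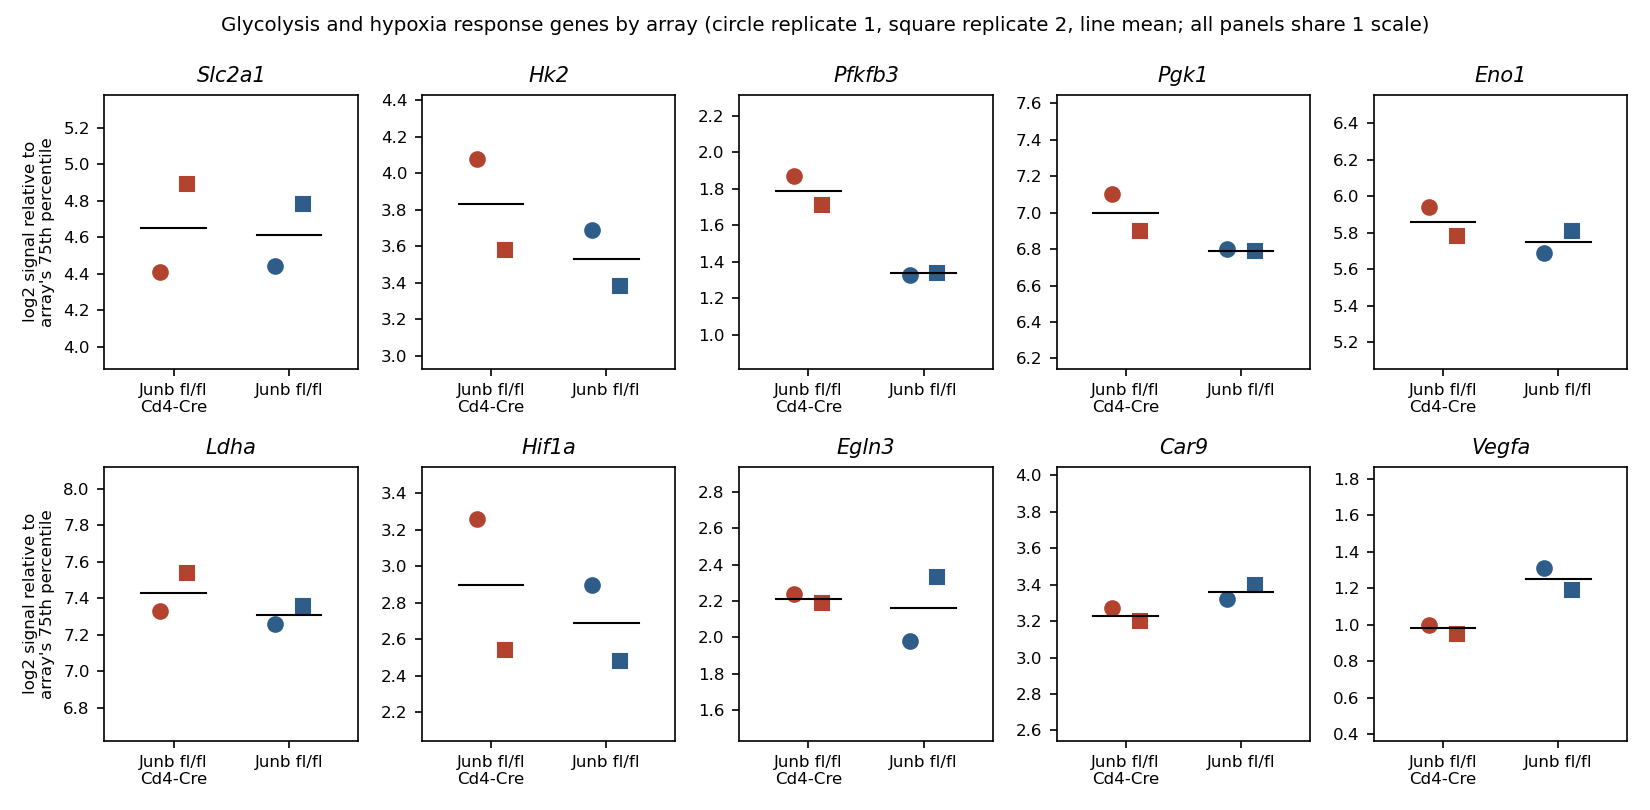
Log2 signal relative to the array's 75th percentile (y axis, each panel on the same scale, around its own centre) of the 10 genes on each array, with Junb fl/fl Cd4-Cre left and Junb fl/fl right. Circles are replicate 1, squares replicate 2 and lines the means of n = 2. Pfkfb3, Pgk1, Car9 and Vegfa do not overlap between genotypes, and the same replicate number is the higher in both genotypes in Slc2a1, Ldha, Hk2, Hif1a, Pgk1 and Vegfa.

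Hif1a encodes the oxygen-regulated alpha subunit of HIF-1. The brightest of its probes (chromosome 12, 75047819 to 75047878, mm9) was at 3.26 and 2.54 in the mutants, against 2.90 and 2.48 in the controls. The female colon was the higher in each genotype, by 0.72 in the mutants and 0.43 in the controls, the widest gap between mutants among the 10 genes. The genotypes differed by 0.21 ± 0.28 (interval -0.51 to 0.92, adjusted p = 0.837), and the difference ranged from -0.15, without mutant replicate 1, to 0.57, without mutant replicate 2, with -0.01 without control replicate 2 and 0.42 without control replicate 1. Of its other probes, one gave -0.06 ± 0.29, and its annotated strand is opposite to that of the first. The dimmest was well above background on the replicate 1 array of each genotype only, and gave 0.16 ± 0.63.

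Egln3 encodes a prolyl hydroxylase that marks HIF alpha subunits for degradation and is itself a HIF target. Its only probe (chromosome 12, 55280953 to 55281012, mm9) was at 2.24 and 2.19 in the mutants, against 1.98 and 2.33 in the controls. Both mutants lay between the controls. The difference was 0.06 ± 0.15 (interval -0.32 to 0.44, adjusted p = 0.921), with 0.26 between the female colons and -0.14 between the male ones.

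Car9 encodes carbonic anhydrase 9, a membrane enzyme that handles the acid made by glycolysis and a common marker of hypoxic cells. The brighter probe (chromosome 4, 43526518 to 43526577, mm9) was at 3.27 and 3.20 in the mutants, against 3.32 and 3.40 in the controls. Both mutants were the lower, by a small margin. The difference was -0.13 ± 0.10 (interval -0.39 to 0.14, adjusted p = 0.719). The dimmer probe of the same transcript was higher in the mutants, at 0.88 and 1.24 in the mutants and 0.76 and 1.01 in the controls (0.18 ± 0.18), so the probes of Car9 gave no common direction, and their mean differed by 0.03.

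Vegfa encodes the vascular endothelial growth factor that hypoxic cells secrete to draw in vessels. The brightest of its 4 probes (chromosome 17, 46154387 to 46154446, mm9) was at 1.0 and 0.95 in the mutants, against 1.31 and 1.19 in the controls. Both mutants lay below both controls. Vegfa was 1.21-fold lower (log2 difference -0.27 ± 0.12, interval -0.57 to 0.03), with an unadjusted p of 0.0674 and an adjusted p of 0.565, so it did not pass. The difference was -0.30 in the female and -0.24 in the male pair, and between -0.33 and -0.21 without 1 array. Of its other probes, which lie within the same gene, 2 were lower as well, at -0.26 ± 0.16 and -0.40 ± 0.40. The remaining one, at 0.87 and 0.76 in the mutants and 0.75 and 0.73 in the controls, gave 0.07 ± 0.12.

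By the brightest probes, the difference between genotypes was larger than the gap within both genotypes in Pfkfb3, Vegfa and Car9, and about equalled the wider gap in Pgk1. The share of all genes of which this holds was not counted, and the dimmer Car9 probe went the other way (0.18). In each of the other 6 genes at least one gap within a genotype was the larger. In 7 of the 10 genes the genotype difference had the same sign between the female and between the male colons, and in 3 (Slc2a1, Eno1 and Egln3) opposite signs. The share of all genes with the same sign in both pairs was not counted either.

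**Figure D3:**
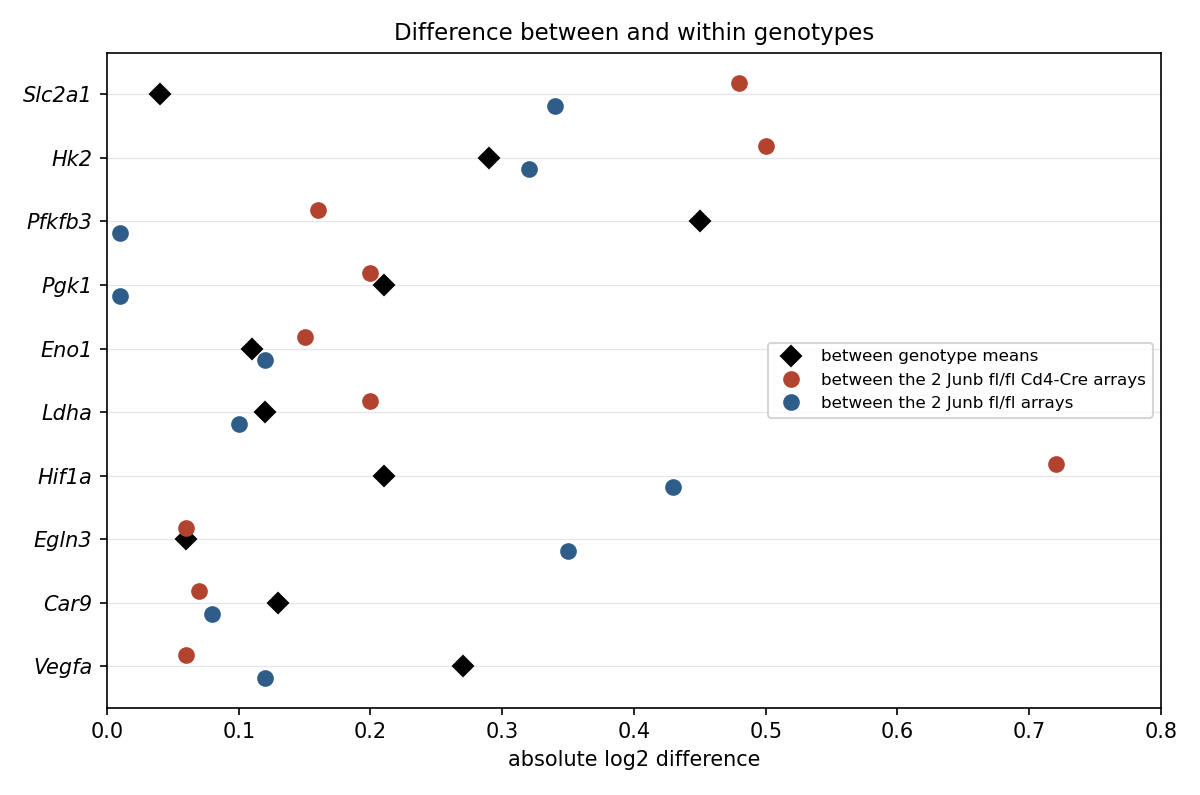
Absolute log2 difference (x axis) between the genotype means (diamonds), between the 2 Junb fl/fl Cd4-Cre arrays (red circles) and between the 2 Junb fl/fl arrays (blue circles) for the 10 genes (y axis). The red circle of Hif1a, at 0.72, is the farthest right, and its genotype means differ by 0.21.

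Genes around these 10 in the same pathways were taken in 9 lists with 116 names, of which 107 were tested. None passed the adjusted threshold. At an unadjusted p under 0.05, 5 were higher and 5 lower, beside the 5.31% and 3.98% of all genes given above. Their median difference was 0.01, with 55 higher and 52 lower.

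Of 20 other glycolytic enzymes 11 were higher and 9 lower (median 0.04), and 6 higher and 14 lower with quantile normalization (median -0.06), with 1 in each direction at an unadjusted p under 0.05. Hk3, a hexokinase gene prominent in myeloid cells, was 1.51-fold higher by its brighter probe, at 0.08 and 0.09 in the mutants and -0.67 and -0.35 in the controls (0.60 ± 0.16, adjusted p = 0.428). Its other probe gave 0.30, and the mean of its probes differed by 0.45. The putative hexokinase gene Hkdc1 was at 2.82 and 3.15 in the mutants and 3.35 and 3.47 in the controls (-0.43 ± 0.15, adjusted p = 0.493). Neither set of arrays overlapped. The platelet-type phosphofructokinase gene Pfkp had a difference of 0.26 ± 0.10, and its probes ranged from -0.12 to 0.28. Among 6 genes that make or remove fructose bisphosphates, 3 were higher and 3 lower (median -0.09). Pfkfb4, a relative of Pfkfb3, differed by -0.38 ± 0.20, Pfkfb2 by -0.18 ± 0.17 and the gluconeogenic phosphatase gene Fbp1 by -0.48 ± 0.19.

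Of 10 glucose and lactate transporters other than Slc2a1, 4 were higher and 6 lower (median -0.04). Slc2a4, the insulin-dependent glucose carrier of muscle and fat, was at 1.44 and 1.65 in the mutants and 1.91 and 2.36 in the controls (-0.59 ± 0.19, unadjusted p = 0.0245, adjusted p = 0.472). Slc16a3, the lactate exporter MCT4 and a known HIF target, was at 2.12 and 2.48 in the mutants and 1.38 and 2.05 in the controls (0.58 ± 0.26, adjusted p = 0.572), a difference of 0.24 without control replicate 1 and 0.92 without control replicate 2. Slc2a3, encoding the carrier GLUT3, differed by -0.27 ± 0.18. Of 12 genes of pyruvate entry into mitochondria 6 were higher and 6 lower. Pdp1, a phosphatase that activates pyruvate dehydrogenase, differed by -0.60 ± 0.19 (adjusted p = 0.468), and the inhibitory kinases Pdk1 and Pdk3 by 0.17 ± 0.12 and 0.23 ± 0.13. The 5 probes of Pdk1 ranged from -0.98 to 0.22, and the 2 of Pdk3 gave -0.02 and 0.23.

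The pentose phosphate pathway, which branches from glycolysis to make NADPH and ribose, had all 7 of its genes higher by their brightest probe (median 0.22), where 53.3% of all genes were higher. In 6 of the 7 both mutants lay above both controls, as in 25.7% of all genes. The number higher was 6 of 7 with quantile normalization and 5 of 7 with the mean of each gene's probes (median 0.12 in each). Dimmer probes reached -1.14 in Pgls, -1.18 in Rpe and -0.24 in Rpia. None of the 7 passed the adjusted threshold, and 2 had an unadjusted p under 0.05. Tkt, encoding transketolase, was at 5.66 and 5.67 in the mutants and 5.35 and 5.44 in the controls (0.27 ± 0.10, adjusted p = 0.521). Rpia, the ribose 5-phosphate isomerase gene, was at 1.5 and 1.53 in the mutants and 1.13 and 1.23 in the controls (0.33 ± 0.11, adjusted p = 0.494), and the mean of its probes differed by 0.05. Pgd, encoding the second dehydrogenase of the pathway, differed by 0.30 ± 0.12 (adjusted p = 0.549). Proliferation markers were also higher in the mutants, in 6 of 6 cases, 5 of them at an unadjusted p under 0.05, against 5.31% of all genes. Their mean log2 signal was 2.94 and 2.41 in the mutants and 1.97 and 1.68 in the controls. Their part in the pentose phosphate values was not tested.

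Of the 10 tested genes of the HIF machinery 6 were higher and 4 lower (4 and 6 with quantile normalization), with a median of 0.03, and none had an unadjusted p under 0.05. The smallest p values were those of Hif3a (-0.37 ± 0.21), Hif1an (0.17 ± 0.16) and the hydroxylase gene Egln2 (0.11 ± 0.12). The other probe of Hif1an gave -0.07, and the mean of its probes differed by 0.05. Of 25 other hypoxia targets 15 were higher and 10 lower (median 0.03, or -0.01 with the percentile taken over detected probes), and the 3 with an unadjusted p under 0.05 did not share a direction. Tfrc, the transferrin receptor gene, was at 1.5 and 1.56 in the mutants and 0.92 and 0.98 in the controls (0.58 ± 0.11, adjusted p = 0.418), and another of its probes gave 0.81. Ddit4, an inhibitor of the kinase mTORC1 that also responds to other stresses, was at 3.76 and 4.38 in the mutants and 2.97 and 3.63 in the controls (0.77 ± 0.30, adjusted p = 0.537). The Ddit4 difference was 0.46 without mutant replicate 2 and 0.44 without control replicate 1, but 1.08 without mutant replicate 1 and 1.11 without control replicate 2. Ankrd37 was at 0.95 and 1.70 in the mutants and 2.02 and 2.39 in the controls, 0.543 times the control level (-0.88 ± 0.28, adjusted p = 0.472), and the difference was -0.51 without mutant replicate 1.

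All 7 tested genes of the VEGF family and its receptors other than Vegfa were lower by their brightest probe (median -0.16), or 6 of 7 with the mean of probes, none with an unadjusted p under 0.05. Of all 19326 genes tested, 9016 were lower. The main VEGF receptor gene of endothelium, Kdr, differed by -0.39 ± 0.22 (-0.22 without mutant replicate 1, -0.62 without control replicate 1 and -0.15 without control replicate 2), the co-receptor gene Nrp1 by -0.20 ± 0.14 and the lymphatic growth factor gene Vegfc by -0.16 ± 0.15. The probes of Nrp1 ranged from -0.22 to 0.97. Endothelial markers were lower in 6 of 6 cases, none at an unadjusted p under 0.05, with a mean log2 signal of -1.25 and -0.72 in the mutants and -0.90 and -0.45 in the controls. Their part in the VEGF values was not tested.

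Of 11 other carbonic anhydrase genes tested 3 were higher and 8 lower (median -0.20). Car2, a cytosolic enzyme of colonocytes, was at 4.48 and 4.38 in the mutants and 4.94 and 4.77 in the controls (-0.42 ± 0.11, unadjusted p = 0.0135, adjusted p = 0.428). Car4 differed by -0.37 ± 0.21, and by -0.09 without control replicate 1 and -0.64 without control replicate 2. Car8 differed by -0.34 ± 0.15, and by -0.66 with the mean of its probes and -0.22 with normexp correction. Epithelial markers did not share a direction, with 4 of 9 higher (2 of 9 with quantile normalization) and a mean log2 signal of 6.01 and 6.14 in the mutants and 6.24 and 6.05 in the controls.

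**Figure D4:**
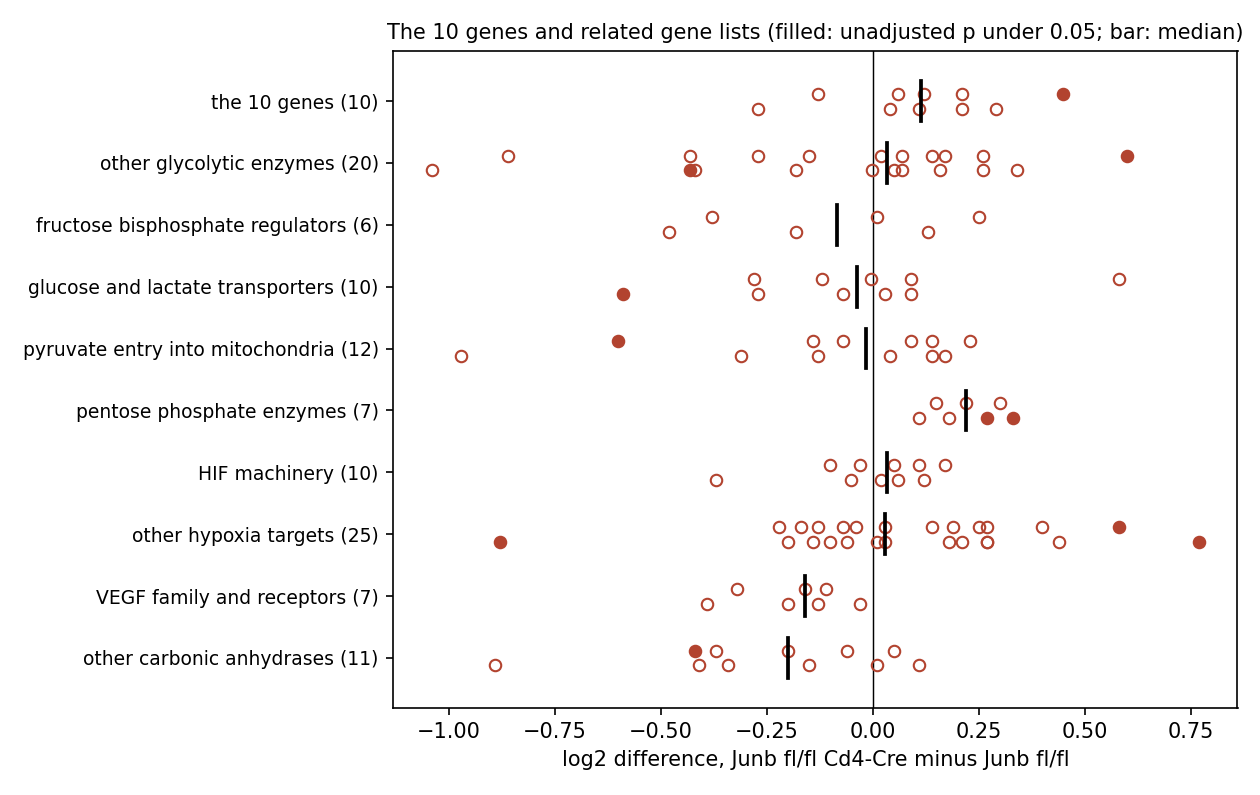
Log2 difference between Junb fl/fl Cd4-Cre and Junb fl/fl colon (x axis) of the 10 genes and of the genes in 9 related lists (y axis, number tested in brackets), n = 2 arrays each. Filled points have an unadjusted p under 0.05, none has an adjusted p under 0.05, and bars are medians. By the brightest probe of each gene, pentose phosphate genes lie to the right of 0 and the VEGF family to the left (5 of 7 and 6 of 7 with the mean of probes, and 6 of 7 pentose phosphate genes with quantile normalization).

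Markers of other cell types were read beside these genes, and none passed the adjusted threshold. At an unadjusted p under 0.05 in limma, 6 smooth muscle, 5 T cell, 3 adipocyte, 2 red blood cell and 1 macrophage marker were lower. The same threshold was met by 3 neutrophil markers that were higher. Of all genes, 3.98% were lower and 5.31% higher at that threshold. Regardless of p, 9016 of all 19326 genes were lower and 10310 higher. Of 12 neutrophil markers listed 8 were tested, as Mpo and Ngp failed the background filter everywhere and Cxcr2 and Mmp8 did not pass it either. The tested neutrophil markers were higher in 5 of 8 cases, with a mean log2 signal of -0.22 and 0.71 in the mutants and -1.40 and -0.32 in the controls. Macrophage markers were higher in 1 of 6 cases (1.45 and 1.66 in the mutants, 1.5 and 2.05 in the controls). T cell markers were lower in 8 of 8 cases (-1.52 and -1.57 in the mutants, -0.73 and -0.93 in the controls), and smooth muscle markers in 6 of 6 (4.61 and 4.57 in the mutants, 5.08 and 5.20 in the controls). Adipocyte markers were lower in 3 of 4 cases (-1.08 and -0.70 in the mutants, 0.48 and 0.10 in the controls) and red blood cell markers in 3 of 3 (-1.70 and -0.47 in the mutants, -0.12 and 0.67 in the controls). Some of these markers were not well above background on every array. With the filter on all 4 arrays, 7 of 7 T cell, 2 of 3 adipocyte and 2 of 2 red blood cell markers were lower. Of 5 neutrophil markers 3 were then higher. The median T cell difference was then -0.48, against -0.67, and the adipocyte one -0.74, against -1.39. The part of the cell types in the values of the 10 genes, of Hk3 and of Slc2a4 was not tested.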

How the data were processed

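Total RNA of whole colon was labelled with Cy3 and hybridised to 4 arrays, 2 per genotype, grouped and numbered by the sample titles. The deposited files hold the intensity of each spot, per the file headers, as the scanner software Agilent Feature Extraction (version 11.5.1.1 in the submitters' processing notes) wrote it. The processed signal is background-corrected within an array, with no normalization between arrays recorded. The deposited flags on each spot are yes or no values.

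From these, the log2 processed signal minus each array's 75th percentile (268.5 to 330) was taken. Spots flagged as outliers were left out, which removed 11 probes. Probes well above background on at least 2 arrays were kept, and the brightest stood for its gene. Genotypes were compared with limma 3.58.1 in R 4.3.3 (intensity trend, no block, two-sided) across all genes, with Benjamini-Hochberg adjustment over 19326 genes. Other probes come from the same fit over 28898 probes. The precision is limited by the number of arrays. The 10 genes, the related lists, the markers and the rule for naming genes (all 10, and up to 3 per list by smallest p) were chosen with earlier results of these data known. Promoter letters and current names come from RefSeq, and probe positions from the files (mm9).

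Same-numbered arrays deviated together (r = 0.239 across genes), but with 2 pairs and no label on pairing the fit without a block was kept. Alternatives were normexp correction (offset 50), quantile normalization, another percentile, other filters, the mean of probes, no trend, the block, other thresholds and leaving out each array.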

Additional observations from a re-analysis of the deposited data

Results flagged for a closer look

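In 3 of the 10 genes the female pair and the male pair differed in opposite directions, mutant minus control, each pair being 1 array against 1. Slc2a1 differed by -0.03 between the replicate 1 (female) colons and 0.11 between the replicate 2 (male) colons. Eno1 differed by 0.25 between the female colons and -0.03 between the male colons. Egln3 differed by 0.26 between the female colons and -0.14 between the male colons. Whether the pairs differ was not tested, since 1 array per sex and genotype leaves no spread to test against. The share of all genes with opposite signs in the pairs was not counted.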

How the results depend on the processing

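None of the 10 genes passed the adjusted threshold in any of 12 alternative fits, and 110 of their 120 values kept their direction. The fits with other filters, no trend or the block could not turn a direction, as each of the 10 kept the same probe and values. All 10 values that turned came from the other fits. At an unadjusted p under 0.05 in place of the adjusted one, 1 of the 10 counted, and 0 with a 2-fold change as well. Quantile normalization moved the median of the 10 genes to 0.00029 and turned Slc2a1 (-0.06), Eno1 (-0.05) and Ldha (-0.01). Slc2a1 was at -0.0035 with the percentile taken over probes detected on all arrays, and Car9 at 0.03 with the mean of its probes. Leaving out 1 array gave -0.20 to 0.28 for Slc2a1, -0.15 to 0.57 for Hif1a and -0.11 to 0.23 for Egln3. The causes were not tested. The fit with a replicate block called 46 genes, none of the 10 among them. Under the block the unadjusted p was 0.0266 for Hk2, 0.00811 for Pfkfb3 and 0.0494 for Vegfa (adjusted p = 0.228, 0.159 and 0.285). The number of genes at an unadjusted p under 0.05 was 1796, and 3607 without the filter on dim probes, 3383 with the block and 864 without mutant replicate 1. Without the filter the median of all genes was -0.12. Among 27 related genes named, 321 of 324 values kept their direction. Here too the fits with other filters, no trend or the block left every difference as it was. Nrp1 turned to 0.18 and Pdk1 to -0.15 with the mean of their probes, and Pfkfb2 ranged from -0.37 to 0.01 without 1 array, turning without control replicate 1. No slide or scan block applied, as all arrays shared 1 slide.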
